A study of Homo sapiens with 12 samples.

Results

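The genes described here are 10 that drive entry into mitosis: the kinase CDK1, its partner cyclins CCNA2, CCNB1 and CCNB2, the kinases PLK1 and AURKA, the phosphatases CDC25B and CDC25C, and the transcription factors FOXM1 and MYBL2. They were chosen by name, with earlier results of these data known, from 23583 features of a gene count table. All 10 were in the table and passed the filter on low counts that left 16946 features. Shares over all features are given below as background and are not independent support. RNA was sequenced from 2 human hepatocellular carcinoma lines: Huh7, which retains hepatocyte traits such as albumin secretion, and HCCLM3, which was selected for metastasis in mice. In the group called si-circASH2 a small interfering RNA against the circular RNA circASH2 was given, and in the group called si-NC a control siRNA, which gave 4 groups of 3 libraries and 12 libraries in all. The design asks what silencing circASH2 does in relation to metastasis of liver cancer. The sources used here do not give the dose, the time after transfection or the siRNA sequence. Whether the 3 libraries of each group were separate cultures is not stated in the labels, so p-values reflect library-to-library spread that may be technical only.

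CDK1 becomes active when it binds cyclin A or cyclin B, and it is held back by phosphates that the kinases WEE1 and PKMYT1 add and that the CDC25 phosphatases remove. AURKA activates PLK1, and PLK1 in turn activates CDC25C and inactivates WEE1, so that CDK1 switches on abruptly at the end of G2. The genes of this circuit are transcribed late in the cell cycle, when the MuvB complex exchanges the repressors it holds in resting cells for B-MYB, the product of MYBL2, and then for FOXM1, and they are known as markers of proliferation in hepatocellular carcinoma. MuvB binds a promoter element called CHR, often close to CCAAT boxes bound by NF-Y.

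Library depth was even, between 29006781 and 30858895 counts, and mitochondrially encoded genes took 8.90 to 9.53% of the counts in Huh7 si-NC libraries, 9.31 to 10.3% in Huh7 si-circASH2, 7.24 to 7.61% in HCCLM3 si-NC and 6.94 to 8.42% in HCCLM3 si-circASH2. Raw counts of the 10 genes ran from 272 (CDC25C, HCCLM3 si-NC replicate 2) to 9902 (FOXM1, HCCLM3 si-circASH2 replicate 3) per library, and levels below are CPM, counts scaled to library size with TMM factors. Fold changes are log2 values with a standard error (3 libraries a group) and compare si-circASH2 with si-NC. The standard error was derived from edgeR's F statistic, as the absolute log2 fold change over the square root of F. The spread behind F was estimated over all 12 libraries and moderated across features. The circle itself was not analysed here, since a gene count does not separate it from the linear RNA of its host gene ASH2L, a subunit of histone methyltransferases. ASH2L lay at 74.1 to 80.2 CPM in Huh7 si-NC and 65.5 to 68.1 in si-circASH2 libraries, and at 31.3 to 34.2 and 26.4 to 28.1 CPM in HCCLM3; it fell in both lines (log2 fold change -0.19 ± 0.05, edgeR adjusted p = 0.00304, and -0.24 ± 0.05, edgeR adjusted p = 0.0014). Of 10 hepatocyte markers all 10 reached 1 CPM in Huh7, with a summed level of 37205 to 37291 CPM in si-NC and 34056 to 34778 in si-circASH2 libraries. In HCCLM3 7 of 10 did, with sums of 202 to 208 and 243 to 245 CPM: albumin (ALB) averaged 3.24 CPM in si-NC libraries, APOA1, TTR and SERPINA1 were below 1 CPM and HNF4A was at 94.9 CPM. The hepatocyte markers did not share a direction after si-circASH2. In Huh7 ALB averaged 9866 and 8452 CPM with si-NC and si-circASH2, but TTR averaged 452 and 583 and APOB 8448 and 8761. In HCCLM3 APOH averaged 46.0 and 75.9 CPM and APOB 52.0 and 63.7, while HNF4A averaged 94.9 and 91.4. The summed level of 8 fibroblast markers was higher after si-circASH2, 37.9 to 43.3 against 59.9 to 61.1 CPM in Huh7 and 35.9 to 38.4 against 49.6 to 53.9 in HCCLM3. COL1A2 averaged 24.4 and 38.9 CPM in the Huh7 groups and LUM 34.3 and 48.4 CPM in the HCCLM3 groups, while DCN and THY1 had no count in Huh7 and COL1A2, PDGFRB and THY1 none in HCCLM3 si-NC. Not every fibroblast marker rose. COL1A1 averaged 4.21 and 3.95 CPM in the Huh7 groups and 0.218 and 0.124 in the HCCLM3 groups. PDGFRA averaged 3.31 and 3.39 CPM in Huh7 and 0.448 and 0.446 in HCCLM3. The 8 leukocyte markers summed to 384 to 421 and 340.3 to 368 CPM in Huh7, mostly LYZ, and to 151 to 172 and 177 to 213 CPM in HCCLM3, mostly CD68, with CD3E and MS4A1 at 0 in every group. In Huh7 LYZ averaged 375 and 312 CPM with si-NC and si-circASH2, while CD68 averaged 20.7 and 38.6 and ITGAM 1.42 and 3.01. In HCCLM3 CD68 averaged 154 and 187 CPM and ITGAM 6.67 and 5.68. The 7 endothelial markers summed to 24.1 to 27.5 and 23.7 to 24.4 CPM in Huh7 and to 26.1 to 27.9 and 19.97 to 22.1 CPM in HCCLM3, with ERG and TIE1 at 0. The part of these markers and of the mitochondrial share in the results was not tested.

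After si-circASH2 all 10 genes fell in Huh7 by edgeR's test over all 12 libraries. In HCCLM3 3 of them rose and none passed that test downward, although CDK1 did so in 2 of 16 alternatives. In Huh7 the falls ran from 19.2% for CDC25B to 41.2% for CDK1, with a median log2 fold change of -0.48 over the 10 genes against 0.01 over all features tested. Each fall passed edgeR's quasi-likelihood test at an adjusted p of 0.05, where 15.1% of all features were called lower and 31.4% in either direction, and in each gene the 3 si-circASH2 libraries lay below the 3 si-NC libraries, which was so for 20.3% of features (22.4% lay wholly above). In HCCLM3 CCNB2, MYBL2 and CDC25B rose by between 16.2% and 25.6% (15.1% of features were called higher there and 30.6% in either direction), the other 7 did not pass the test, and the median over the 10 was 0.03 against 0 over all features. Groups in HCCLM3 lay apart without overlap for CDK1 downward (21.9% of features) and for CCNB1, CCNB2, MYBL2 and CDC25B upward (21.8%). In the fit over all 12 libraries edgeR called 0 of 10 lower in HCCLM3 and 1 (CDK1) had an unadjusted p under 0.05; DESeq2 and limma on the deposited FPKM also called 0, and edgeR with each line fitted alone called 1 (CDK1, adjusted p = 0.0346). In RNA from bulk cultures, fewer cells in G2 and mitosis and less RNA per cell cannot be told apart.

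**Figure D1:**
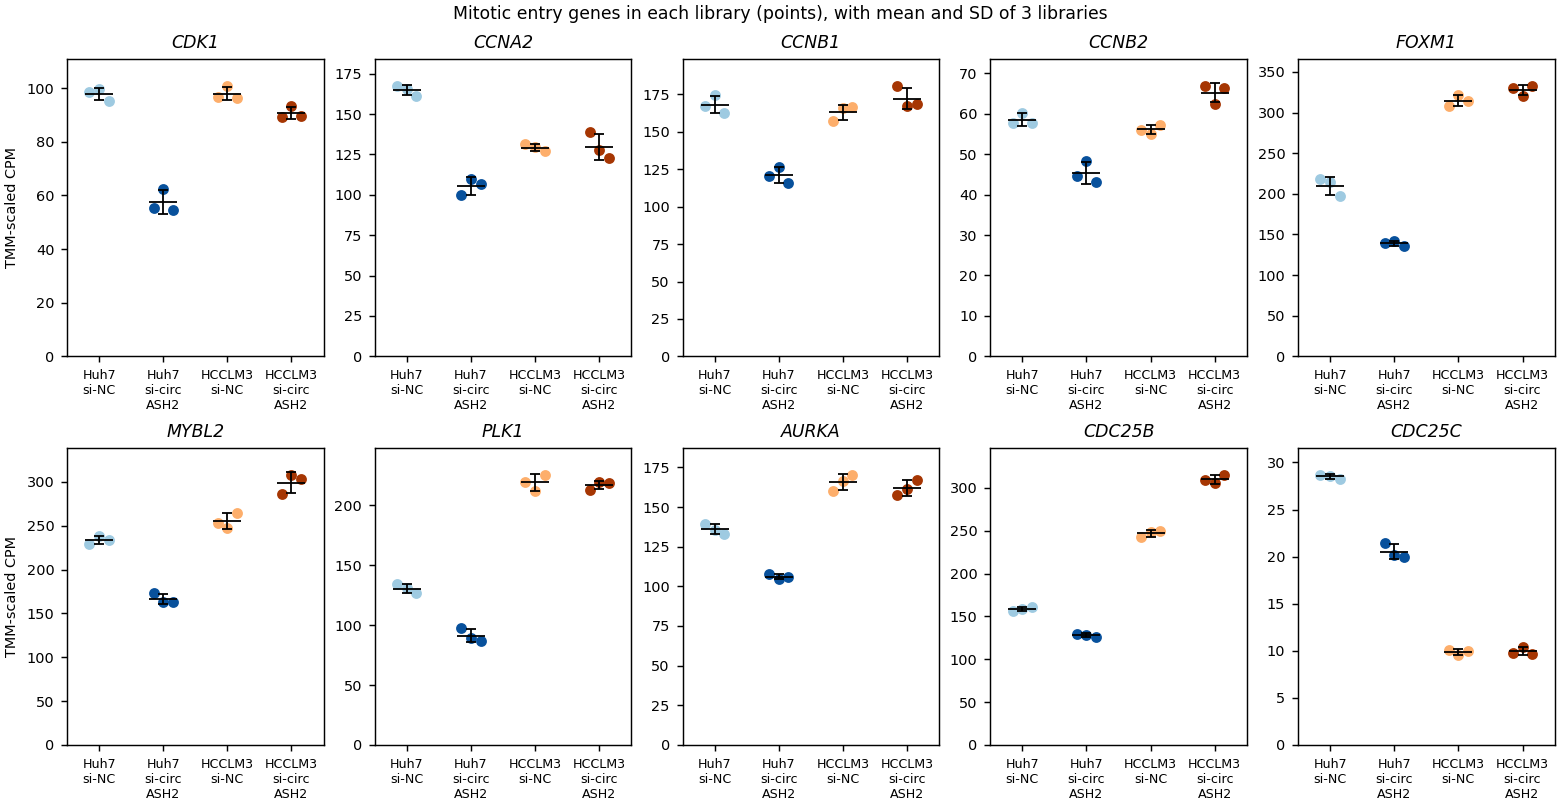
TMM-scaled CPM (y axis, from 0) of the 10 mitotic entry genes in each of the 12 libraries (points) by group, with the mean and SD of 3 libraries. In Huh7 the si-circASH2 points lie below the si-NC points in every panel, while in HCCLM3 only CDK1 lies lower and CCNB1, CCNB2, MYBL2 and CDC25B lie higher without overlap.

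CDK1, the kinase that starts mitosis (chromosome 10, 60778331 to 60794852, GRCh38), had 98.4, 99.7 and 95.2 CPM in the Huh7 si-NC libraries and 55.3, 62.6 and 54.5 CPM in the si-circASH2 libraries. Every knockdown library lay below every control library. The log2 fold change was -0.77 ± 0.05 (edgeR adjusted p = 1.31e-11), the largest fall among the 10 genes. In HCCLM3 CDK1 had 96.7, 101 and 96.4 CPM in si-NC and 89.3, 93.2 and 89.6 CPM in si-circASH2 libraries. These groups did not overlap either, but the log2 fold change of -0.11 ± 0.05 missed the threshold (edgeR adjusted p = 0.0703, 0.0346 with each line fitted alone). The control levels of the lines were nearly equal (97.8 ± 2.33 and 98.0 ± 2.44 CPM, mean ± SD, n = 3).

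CCNA2 encodes cyclin A2, which serves CDK2 in S phase and CDK1 in G2, and lies on chromosome 4 (121816444 to 121823933). Its Huh7 libraries read 167, 165 and 161 CPM with si-NC and 99.6, 110.0 and 107 CPM with si-circASH2, with a fitted log2 change of -0.64 ± 0.04 (edgeR adjusted p = 1.28e-10). In HCCLM3 the values were 131, 129 and 127 and 139, 127 and 123 CPM, and the knockdown libraries lay on both sides of the controls (0.01 ± 0.04, edgeR adjusted p = 0.979). The exons of CCNA2 share 254 bases with EXOSC9 on the opposite strand.

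CCNB1 (chromosome 5, 69167010 to 69178245) and CCNB2 (chromosome 15, 59105078 to 59125045) encode the B-type cyclins that carry CDK1 into mitosis. CCNB1 had 167, 174 and 163 CPM in Huh7 si-NC and 120.3, 127 and 116 CPM in Huh7 si-circASH2 libraries (-0.47 ± 0.04, edgeR adjusted p = 7.08e-09). Its HCCLM3 values were 157, 166 and 166 and 181, 167 and 169 CPM, with the groups just apart and the test not passed (0.08 ± 0.04, edgeR adjusted p = 0.168). CCNB2, the less abundant of the pair, went in Huh7 from 57.7, 60.3 and 57.6 to 44.6, 48.2 and 43.1 CPM (-0.37 ± 0.05, edgeR adjusted p = 2.63e-06). In HCCLM3 it rose from 56.0, 55.02 and 57.3 to 66.8, 62.4 and 66.3 CPM, a change of 0.22 ± 0.05 on the log2 scale (edgeR adjusted p = 0.00121). Every knockdown library of CCNB2 was thus below its controls in Huh7 and above them in HCCLM3.

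FOXM1, the forkhead factor of the G2 and mitotic programme (chromosome 12, 2857681 to 2877155), fell in Huh7 from 218, 214 and 197 to 139.7, 142 and 136 CPM, or -0.60 ± 0.04 in log2 terms (edgeR adjusted p = 3.31e-11). In HCCLM3 it was at 308, 322 and 315 CPM with si-NC and at 330.3, 320.4 and 333 CPM with si-circASH2, with overlapping groups (0.06 ± 0.04, edgeR adjusted p = 0.266). FOXM1 exons share 781 bases with ITFG2 on the opposite strand. MYBL2, which encodes B-MYB (chromosome 20, 43667019 to 43716496), moved in opposite directions in the lines. It fell in Huh7 from 229, 239 and 233 to 173, 163 and 163 CPM (-0.49 ± 0.04, edgeR adjusted p = 9.56e-10). In HCCLM3 it rose from 253, 247 and 265 to 286, 308 and 303 CPM (0.23 ± 0.04, edgeR adjusted p = 5.09e-05). No library of either line crossed into the range of the other group.

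PLK1, the Polo-like kinase that promotes CDK1 activation and later spindle steps (chromosome 16, 23677656 to 23690367), had 134, 131 and 127 CPM in Huh7 si-NC and 97.5, 89.1 and 87.1 CPM in Huh7 si-circASH2 libraries. The log2 change was -0.52 ± 0.04 (edgeR adjusted p = 1.79e-09), with no overlap of the groups. HCCLM3 held more PLK1, 220.0, 212 and 226 CPM with si-NC and 213, 219 and 219 CPM with si-circASH2, and its groups overlapped (-0.01 ± 0.04, edgeR adjusted p = 0.86). AURKA, the Aurora kinase of centrosome maturation that activates PLK1 (chromosome 20, 56369389 to 56392337), fell in Huh7 from 139, 135 and 133 to 108, 105 and 106 CPM (-0.36 ± 0.04, edgeR adjusted p = 1.04e-07). It was at 160.3, 167 and 170.4 and 157, 162 and 167 CPM in HCCLM3, again with overlap (-0.03 ± 0.04, edgeR adjusted p = 0.577). The annotation names pseudogenes of AURKA (AURKAP1 and AURKAP2) and of CCNB2 (CCNB2P1), and how reads were shared with such copies is not known.

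CDC25B, the phosphatase that gives CDK1 its first activation at the centrosome (chromosome 20, 3786772 to 3806121), had the smallest fall in Huh7 and the largest rise in HCCLM3. Huh7 libraries held 156, 158 and 161 CPM with si-NC and 130.1, 129 and 126 CPM with si-circASH2 (-0.31 ± 0.03, edgeR adjusted p = 1.64e-07). HCCLM3 libraries held 242, 249 and 249.6 CPM with si-NC and 309, 306 and 315 CPM with si-circASH2 (0.33 ± 0.03, edgeR adjusted p = 4.27e-08). CDC25C, the phosphatase that PLK1 and CDK1 activate in a feedback loop (chromosome 5, 138285265 to 138338355), was the least abundant of the 10. It fell in Huh7 from 28.7, 28.6 and 28.3 to 21.4, 20.1 and 19.95 CPM (-0.48 ± 0.07, edgeR adjusted p = 4.65e-06). In HCCLM3 it stood at 10.1, 9.52 and 10.01 and 9.73, 10.4 and 9.64 CPM, with overlapping groups (0.01 ± 0.08, edgeR adjusted p = 0.98). CDC25C exons share 293 bases with FAM53C on the opposite strand. Because no source used here gives the strand of the libraries, reads of CDC25C, CCNA2, FOXM1 and PLK1 (42 exonic bases shared with ERN2 and 553 with AC008870.3, which has no row in the table) cannot be told apart from those of their partners in the shared bases.

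The knockdown effect differed between the lines for all 10 genes, tested as the log2 fold change in HCCLM3 minus that in Huh7. How far circASH2 itself fell in each line was not analysed here, and its part in this difference was not tested. Over all features 9.6% were called higher in this difference, 11.3% lower and 20.9% in either direction. The largest gap was that of MYBL2 (0.72 ± 0.05, edgeR adjusted p = 1.52e-09), followed by CDK1 (0.66 ± 0.07, 1.15e-07) and FOXM1 (0.65 ± 0.05, 5.22e-09). The smallest was that of AURKA (0.33 ± 0.05, edgeR adjusted p = 7.86e-05), and the median was 0.61 against -0.02 over all features. Within this shared gap the genes kept part of their order: CDK1 had the lowest and CDC25B the highest log2 fold change of the 10 in each line, and Spearman's rho between the lines over the 10 genes was 0.52. MYBL2 was the sixth from the top in Huh7 and next to the top in HCCLM3. This rho is a description over genes that share libraries and depth, and it carries no test.

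**Figure D2:**
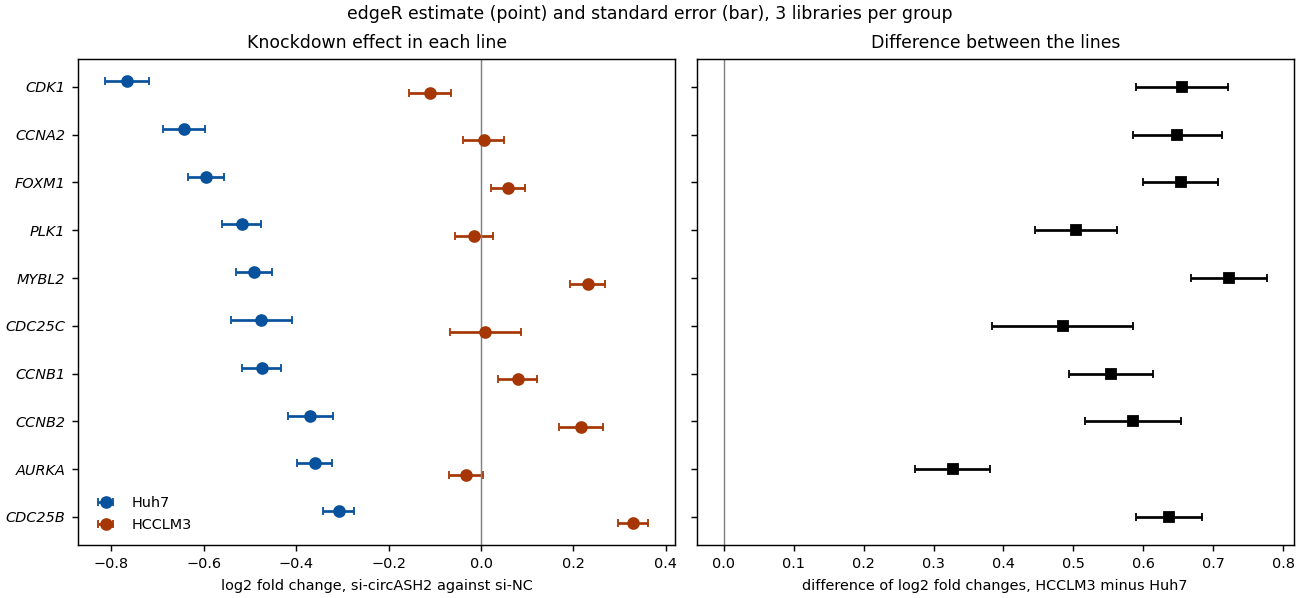
Left, log2 fold change (x axis) of si-circASH2 against si-NC for each gene in Huh7 (blue) and HCCLM3 (brown); right, the difference of the log2 fold changes (HCCLM3 minus Huh7). Points are edgeR estimates and bars their standard errors, derived from edgeR's F statistic, with 3 libraries per group. All Huh7 points lie below 0 and all differences above 0, from 0.33 for AURKA to 0.72 for MYBL2.

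Control libraries of the lines differed in 7 of the 10 genes and in no common direction, where 85.2% of all features were called (43.6% lower and 41.6% higher in HCCLM3; 44.3% lay wholly lower and 42.2% wholly higher, beside 3 and 5 of the 10 genes). HCCLM3 held more PLK1 (log2 difference to Huh7 0.75 ± 0.04, edgeR adjusted p = 2.71e-14), CDC25B (0.64 ± 0.03, 7.41e-15), FOXM1 (0.58 ± 0.04, 5.31e-13), AURKA (0.29 ± 0.04, 2.16e-07) and MYBL2 (0.13 ± 0.04, 0.00425). It held less CDC25C (-1.53 ± 0.07, edgeR adjusted p = 6.26e-16) and CCNA2 (-0.35 ± 0.04, 1.09e-07). CDK1, CCNB1 and CCNB2 did not pass, with log2 differences between -0.06 and 0.00. The CDC25C level of HCCLM3 controls was 9.86 ± 0.297 CPM against 28.5 ± 0.224 CPM in Huh7 (mean ± SD, n = 3).

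Levels of different genes were compared on the deposited FPKM, which are scaled for gene length. In Huh7 si-NC libraries MYBL2 was the highest at 78.0 ± 1.12 FPKM, then CCNB1 at 70.1 ± 1.41 and AURKA at 59.8 ± 1.45 (mean ± SD, n = 3). FOXM1 (54.7 ± 2.70), CCNA2 (52.1 ± 0.965) and PLK1 (51.9 ± 1.59) followed, and the differences between them were below the sums of their SDs. CDK1 (46.1 ± 0.746) and CDC25B (45.0 ± 0.743) came next, and their difference was below the sum of their SDs; CCNB2 (30.7 ± 0.538) and CDC25C (12.9 ± 0.0973) were the lowest. In HCCLM3 si-NC libraries PLK1 (87.4 ± 3.80 FPKM), MYBL2 (85.5 ± 3.99) and FOXM1 (82.3 ± 0.338) led, each within an SD of the next. After them came, each more than its SD below the one before, CDC25B (75.7 ± 0.271), AURKA (72.5 ± 1.67), CCNB1 (68.8 ± 1.19), CDK1 (46.1 ± 0.474), CCNA2 (41.0 ± 1.11), CCNB2 (29.4 ± 0.624) and CDC25C (4.59 ± 0.475). MYBL2 was the most abundant of the 10 in every group other than HCCLM3 si-NC, and CDC25C the least abundant in all 4 groups. After si-circASH2 the range over the 10 genes was 9.16 ± 0.440 to 54.7 ± 0.798 FPKM in Huh7 and 4.50 ± 0.227 to 101 ± 2.82 FPKM in HCCLM3.

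Ratios of gene pairs within a library show how the members shifted against each other. They were taken on FPKM for 6 pairs, which were chosen after the counts had been seen. The CCNB1 to CDK1 ratio was higher after si-circASH2 in both lines: it was 1.51 to 1.53 with si-NC (lowest to highest library) and 1.76 to 1.92 with si-circASH2 in Huh7, and 1.46 to 1.53 and 1.59 to 1.80 in HCCLM3. Each knockdown library held more CCNB1 RNA per CDK1 RNA than any control library of its line. The CCNA2 to CDK1 ratio was at 1.11 to 1.15 and 1.18 to 1.31 in Huh7 and at 0.865 to 0.916 and 0.917 to 1.05 in HCCLM3, where the groups almost touched. The CCNB1 to CCNB2 ratio was lower after si-circASH2 in both lines, with 2.26 to 2.31 against 1.94 to 2.15 in Huh7 and 2.28 to 2.40 against 2.00 to 2.01 in HCCLM3.

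The CDC25B to CDC25C ratio was 3.41 to 3.57 in Huh7 si-NC and 3.64 to 4.02 in Huh7 si-circASH2 libraries. HCCLM3 stood far above this, at 15.1 to 18.6 with si-NC and 19.1 to 21.7 with si-circASH2. PLK1 against AURKA was lower in Huh7 after knockdown (0.855 to 0.875 with si-NC, 0.768 to 0.840 with si-circASH2) and overlapped in HCCLM3 (1.16 to 1.24 and 1.18 to 1.24). MYBL2 against FOXM1 overlapped in Huh7 (1.35 to 1.52 and 1.46 to 1.59) and was higher without overlap in HCCLM3 (0.987 to 1.08 and 1.11 to 1.23). For each of the 10 comparisons without overlap the exact two-sided permutation p was 0.1 (0.12 adjusted over the 12 comparisons), the smallest that 3 against 3 libraries allow, so these differences could not reach 0.05 in this design.

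**Figure D3:**
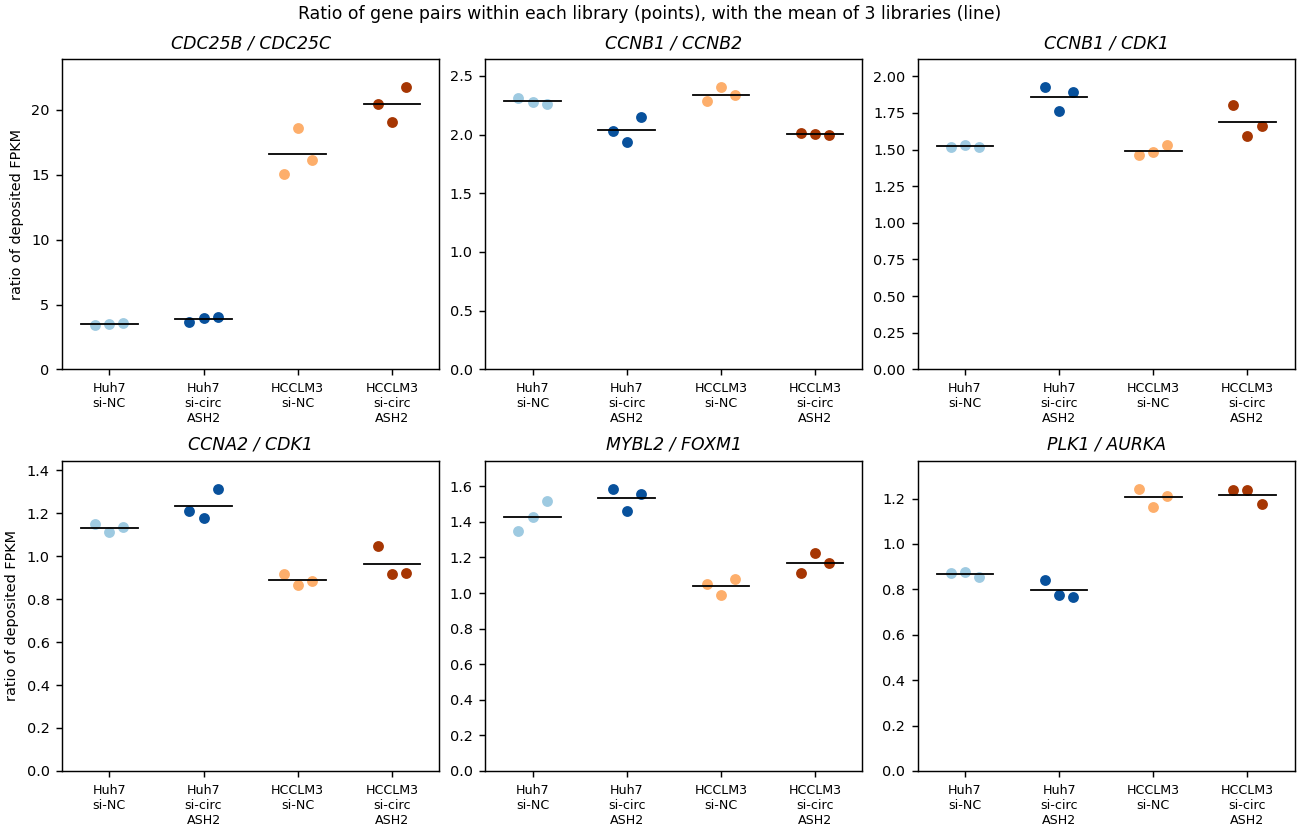
Ratio of deposited FPKM (y axis, from 0) of 6 gene pairs within each of the 12 libraries (points) by group, with the mean of 3 libraries as a line. CCNB1 over CDK1 is higher and CCNB1 over CCNB2 lower with si-circASH2 than with si-NC in both lines, and CDC25B over CDC25C lies between 15.1 and 21.7 in HCCLM3 against 3.41 to 4.02 in Huh7.

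Promoter windows from 250 bases before to 50 bases after the start were taken from RefSeq (GRCh38.p14) for 8 of the 10 genes. FOXM1 and AURKA were not matched. The windows were searched because all 10 genes fell in Huh7 and CHR elements are textbook features of this group. Starts follow RefSeq and can differ from the outer ends of the gene models given above. The 30 bases around a CHR match (TTTGAA, searched with TTCGAA on both strands) just before the start are shown, with the match in capitals and the sequence on the strand of the gene.
CCNB2 (chr15:59105105-59105134, plus strand): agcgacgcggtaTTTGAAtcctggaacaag
PLK1 (chr16:23678848-23678877, plus strand): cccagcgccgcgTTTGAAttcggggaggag
CDC25C (chr5:138331817-138331846, minus strand): gctggcggaaggTTTGAAtggtcaacgcct
CDK1 (chr10:60778453-60778482, plus strand): tagcgcggtgagTTTGAAactgctcgcact
In CCNB2 and PLK1 the match began at base -29 and in CDC25C at base -30, counted from the start, and in CDK1 at base -13. CDK1 held another at base -69 and a further one on the reverse strand after the start.

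A CHR match was present in 4 of the 8 windows and in 16.4% of 35116 RefSeq promoter windows of the same length. CCAAT on either strand was in 6 of 8 against 34.6%, and CHR with CCAAT in 4 of 8 against 6.38%. The genes were chosen from a group known for these elements, so the higher shares were foreseeable and are not a result of the knockdown. The background was not limited to genes expressed in these lines. CCNB2 held 4 CCAAT boxes, CDK1 and CCNB1 held 2 each, and CCNA2, PLK1 and CDC25C held 1 each. The E2F sequence TTTGGCGC or TTTCGCGC was found in CDK1 (1.15% of windows), the forkhead sequence TAAACA in 0 of 8 (12.3%) and the MYB sequence AACNG in 7 of 8 (77.2%). MYBL2 and CDC25B, which rose in HCCLM3, had neither a CHR nor a CCAAT match, while CCNB2, which rose there too, had both. A match is a run of letters and not a measured binding site. Only TTTGAA and TTCGAA were searched as CHR, so a window without a match is not shown to lack the element.

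**Figure D4:**
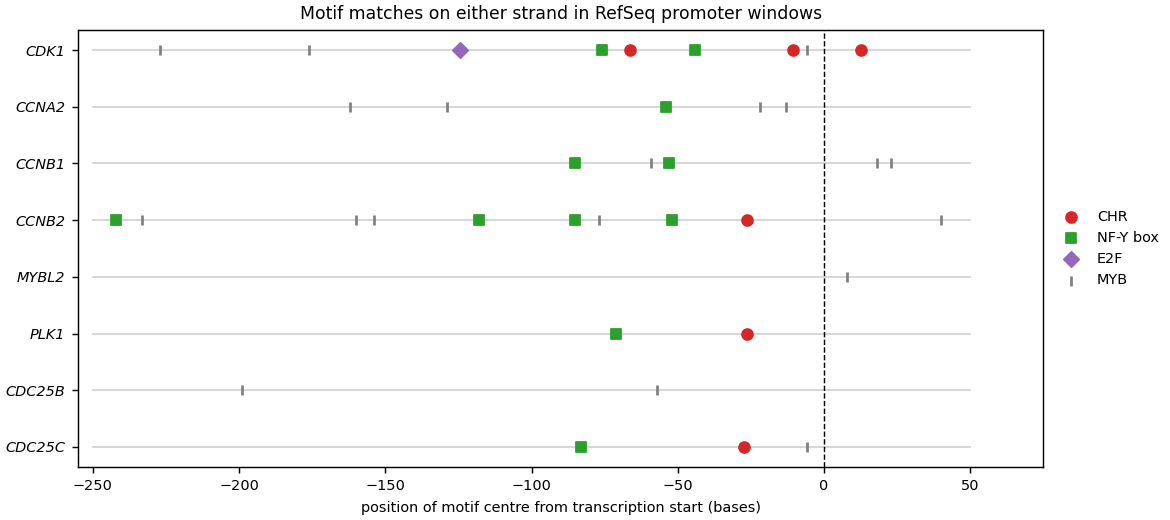
Motif matches on either strand in the RefSeq promoter windows of 8 mitotic entry genes; the x axis is the distance of the motif centre from the transcription start (dashed line) in bases. CHR matches of CCNB2, PLK1 and CDC25C sit at nearly the same distance before the start, each downstream of an NF-Y box (CCAAT). MYBL2 and CDC25B have no match to either sequence as searched.

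The wider circuit was described with 8 lists of other genes, which were chosen with earlier results of these data known. Their counts stand beside the 15.1% of all features called lower and 16.3% called higher in Huh7 and the 15.5% and 15.1% in HCCLM3. Late cell-cycle targets of FOXM1 and of B-MYB with MuvB include many spindle and kinetochore genes. Of 26 tested, 25 (all but CDCA2) fell and 0 rose in Huh7 (median log2 fold change -0.37), and 0 fell and 16 rose in HCCLM3 (median 0.14; 10 rose without HCCLM3 si-circASH2 replicate 1). For the counts of 0, edgeR's unadjusted p under 0.05, DESeq2 and limma on FPKM gave 0 as well, and the difference between lines was called higher for all 26. CENPF, a kinetochore protein, fell in Huh7 from 200.5 ± 1.99 to 163 ± 9.42 CPM (-0.30 ± 0.04) and rose in HCCLM3 from 214 ± 5.31 to 303 ± 17.8 CPM (0.50 ± 0.04). ASPM, a spindle pole protein, had log2 fold changes of -0.34 ± 0.04 and 0.37 ± 0.04, and the proliferation marker MKI67 had -0.44 ± 0.04 in Huh7 and 0.07 ± 0.04 in HCCLM3, where it did not pass (edgeR adjusted p = 0.217).

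Of 12 activators and co-factors of the Aurora and Polo-like kinases, 9 fell and 0 rose in Huh7 (median -0.29; 0 also at an unadjusted p under 0.05, with DESeq2 and with limma on FPKM). In HCCLM3 1 (AJUBA) fell and 8 rose (median 0.17), and the number that rose was 5 without HCCLM3 si-NC replicate 1 and 5 with limma on FPKM. TPX2, which activates AURKA on the spindle, fell in Huh7 (-0.36 ± 0.03) and did not pass in HCCLM3 (0.06 ± 0.03, edgeR adjusted p = 0.184). INCENP, the scaffold of the Aurora B complex, fell in Huh7 (-0.26 ± 0.05) and rose in HCCLM3 (0.33 ± 0.05), as did the checkpoint kinase BUB1 (-0.27 ± 0.04 and 0.28 ± 0.04).

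Brakes on mitotic entry did not share a direction. Of 12 genes of this list and the G2 checkpoint, 6 fell and 4 (CDKN1A, SFN, ATM and ATR) rose in Huh7 (2 rose with limma on FPKM), and 2 (CDKN1A and WEE1) fell and 4 (SFN, CLSPN, PKMYT1 and ATM) rose in HCCLM3. The number that rose in HCCLM3 was 1 without HCCLM3 si-NC replicate 3, 2 without HCCLM3 si-circASH2 replicate 2 and 2 with limma on FPKM. WEE1, the kinase that inhibits CDK1, fell in both lines: Huh7 held 107 ± 5.18 CPM with si-NC and 62.4 ± 3.24 with si-circASH2 (-0.78 ± 0.06), and HCCLM3 held 41.4 ± 2.29 and 29.3 ± 3.10 (-0.50 ± 0.07). CDKN1A, the CDK inhibitor p21, moved in opposite directions. It rose in Huh7 from 14.9 ± 0.858 to 24.4 ± 1.16 CPM (0.71 ± 0.06, edgeR adjusted p = 8.95e-09) and fell in HCCLM3 from 126 ± 2.53 to 73.8 ± 5.52 CPM (-0.77 ± 0.05, edgeR adjusted p = 5.09e-11), and the difference between the lines was -1.48 ± 0.08 (edgeR adjusted p = 7.47e-12). The checkpoint kinase CHEK1 fell in Huh7 (-0.50 ± 0.05), and SFN, a 14-3-3 protein that holds CDK1 in the cytoplasm, rose in both lines (0.31 ± 0.06 and 0.21 ± 0.04).

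Among 10 partners of CDK1, related cyclins and subunits of the CDK-activating kinase, 6 fell and 1 (CDK7) rose in Huh7 (median -0.34), and 2 (CCNE1 and CDK2) fell and 1 (CKS2) rose in HCCLM3 (median -0.06). CDC25A, the third phosphatase of the family, fell in Huh7 from 107 ± 1.64 to 63.8 ± 0.916 CPM (-0.75 ± 0.04, edgeR adjusted p = 4.14e-12), beside -0.31 for CDC25B and -0.48 for CDC25C, and had -0.04 ± 0.05 in HCCLM3 (edgeR adjusted p = 0.536). CCNE1, cyclin E1 of the G1 to S transition, fell in both lines (-0.62 ± 0.06 and -0.42 ± 0.06). The rise of the CDK1 subunit CKS2 in HCCLM3 (0.13 ± 0.05, edgeR adjusted p = 0.043) was lost in 8 of 16 alternatives, among them those without any single HCCLM3 si-NC library (edgeR adjusted p between 0.0638 and 0.118), without HCCLM3 si-circASH2 replicate 3 (0.343) and with limma on FPKM (0.105).

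The remaining lists were mixed. In the Greatwall pathway, which shuts off the phosphatase that opposes CDK1, 3 of 7 genes (MASTL, ARPP19 and PPP2CA) fell and 2 (ENSA and PPP2R2A) rose in Huh7, and 1 (ARPP19) fell and 2 (ENSA and PPP2R2A) rose in HCCLM3. The Greatwall kinase MASTL fell in Huh7 (-0.61 ± 0.05) and had -0.05 ± 0.05 in HCCLM3 (edgeR adjusted p = 0.471). Its substrates moved apart in both lines: ENSA rose by 0.62 ± 0.05 in Huh7 and 0.39 ± 0.04 in HCCLM3, and ARPP19 had -0.33 ± 0.04 and -0.29 ± 0.04. The next list held 19 genes of the APC/C, the ubiquitin ligase that destroys the mitotic cyclins, and of its activators and inhibitors. In Huh7 6 of them fell and 3 (ANAPC7, ANAPC13 and CDC26) rose. Those that fell were CDC27, ANAPC1, UBE2C, UBE2S, the activator CDC20 and the inhibitor FBXO5. The fall of ANAPC1 in Huh7 (edgeR adjusted p = 0.0491) was lost in 11 of 16 alternatives, among them those without Huh7 si-NC replicate 1 (0.156) or 3 (0.171) and without any single Huh7 si-circASH2 library (0.0756 to 0.133). In HCCLM3 2 (CDC27 and ANAPC4) fell and 5 (UBE2C, ANAPC1, ANAPC15, FBXO5 and CDC20) rose; 3 rose without HCCLM3 si-NC replicate 1, without HCCLM3 si-circASH2 replicate 2 or with no filter on low counts. The APC/C subunit CDC27 fell in both lines (-0.46 ± 0.05 and -0.31 ± 0.05). The ubiquitin-conjugating enzyme UBE2C fell in Huh7 (-0.27 ± 0.04) and rose in HCCLM3 (0.22 ± 0.04). Of 12 genes of MuvB and its DREAM partners 6 fell and 3 (RBL2, LIN37 and TFDP2) rose in Huh7, and 2 (E2F5 and RBBP4) fell and 3 (TFDP1, TFDP2 and LIN54) rose in HCCLM3 (1 and 1 with limma on FPKM). The repressor E2F5 had log2 fold changes of -0.37 ± 0.07 in Huh7 and -0.69 ± 0.08 in HCCLM3. Of 28 DNA replication genes 24 fell and 0 rose in Huh7 (median -0.31), and 22 fell with limma on FPKM. The count of 0 was the same at an unadjusted edgeR p under 0.05, with DESeq2 and with limma on FPKM. In HCCLM3 4 (RRM2, MCM6, GINS1 and CDC6) fell and 7 rose (median 0.07), and 6 rose with limma on FPKM. RRM2, the ribonucleotide reductase subunit, had -0.56 ± 0.04 in Huh7 and -0.20 ± 0.04 in HCCLM3, and the helicase subunit MCM2 had -0.37 ± 0.04 and 0.33 ± 0.04. Genes of these lists given with values were those with the smallest p of their list in either line, up to 3 per line. They were thus picked by their values and are not typical of their list. Genes named without a value were also chosen after their values were seen.

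**Figure D5:**
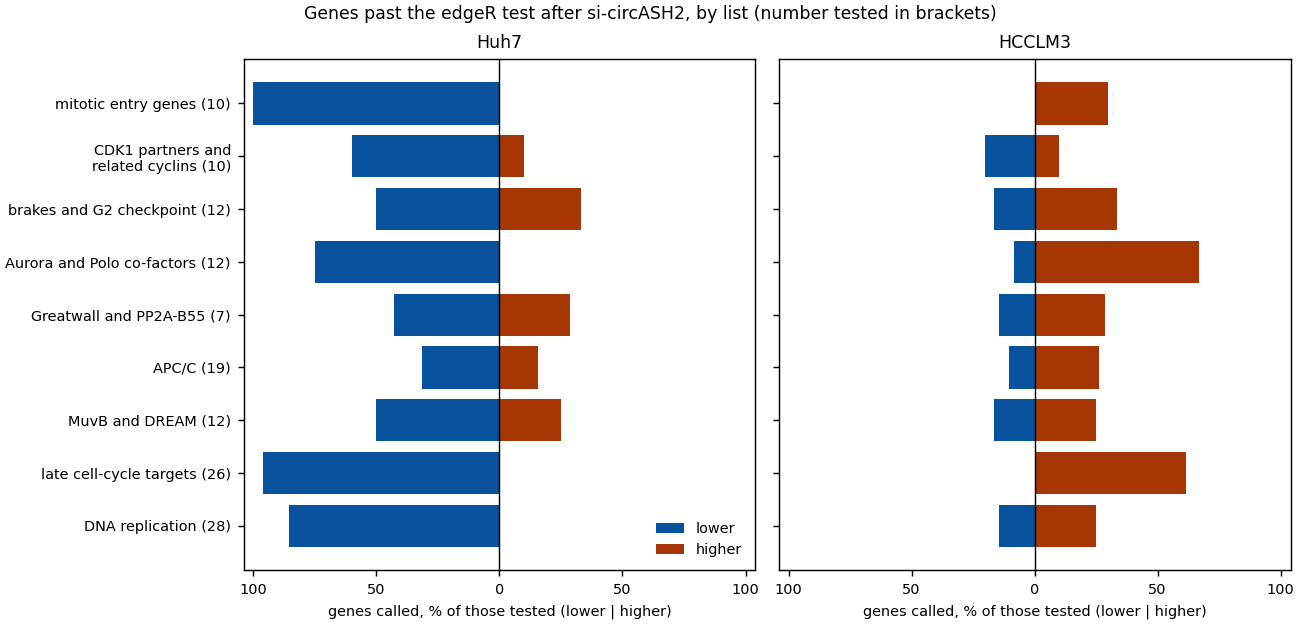
Share of the tested genes of each list called lower (blue, leftward) and higher (brown, rightward) after si-circASH2 by edgeR in Huh7 (left panel) and HCCLM3 (right panel), in percent, with the number tested in brackets. Mitotic entry genes, Aurora and Polo co-factors, late cell-cycle targets and DNA replication genes have only lower calls in Huh7, and the mitotic entry genes (3 of 10) and late targets (16 of 26) have only higher calls in HCCLM3.

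Across the 12 libraries, after the mean of each line was subtracted, each of the 10 genes followed the mean of the other 9, with Pearson's r from 0.74 for CDC25B to 0.99 for FOXM1. The other genes most like the mean of the 10, among 10912 named genes with at least 5 CPM, were MCM7 (r = 0.995), a subunit of the replicative helicase, MSH6 (0.989) of mismatch repair, TPX2 (0.988), RACGAP1 (0.988) of cytokinesis, and GATA6 (0.987), a transcription factor. GATA6 fell in Huh7 (-0.67 ± 0.06, edgeR adjusted p = 2.35e-09) and did not pass in HCCLM3 (0.06 ± 0.06, edgeR adjusted p = 0.437). These correlations describe 12 libraries that share the Huh7 fall, and no p is given for them.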

How the data were processed

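Per the file headers, the authors deposited a whole-number gene count and an FPKM value (fragments scaled for gene length and library size) for each of 23583 features in each of the 12 libraries, and 0 columns of other samples were present. Genome builds in the submitters' processing notes are hg38 and also GRCm38 and mm10, with no role stated; aligner, counter and library strand: not given in the sources used here. Library totals were 29006781 to 30858895 counts.

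Counts were filtered with filterByExpr (minimum count 10, 16946 features kept), scaled by TMM and tested with edgeR 4.0.16 (robust quasi-likelihood fit over the 4 groups, R 4.3.3). Contrasts were knockdown in each line, their difference and si-NC between the lines. P-values were adjusted by Benjamini-Hochberg over all features, with a threshold of 0.05. Alternatives were other scalings, no filter, DESeq2 1.42.0, limma 3.58.1 on log2(FPKM + 0.1) or log2(FPKM + 1), each line alone, a replicate block, and each library left out. A fold change on such a scale understates the change of low genes. In the text limma on FPKM means a pseudocount of 0.1. The fit was also run on simulated counts whose means came from these data, and the outcome is not given here.

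FPKM was used for levels between genes and for ratios within a library, with exact two-sided permutation tests. Gene positions are from GENCODE 29 (GRCh38), and promoter windows from RefSeq (GRCh38.p14). The members and lists were chosen with earlier results of these data known. Named genes are all 10 members, up to 3 tested genes of each list with the smallest p in each knockdown comparison, and the 5 genes most alike in pattern. Libraries of a group differed by more than counting noise (chi-square per degree of freedom 3.89 to 8.53 over 12 pairs), so none was treated as the same library deposited again; whether they share a culture cannot be read from this.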

Additional observations from a re-analysis of the deposited data

Results flagged for a closer look

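The knockdown effect of each of the 10 genes is listed because it differed between the lines by a test of the difference itself, the interaction term of edgeR's quasi-likelihood fit with 3 libraries in each of 4 groups. As the log2 fold change in HCCLM3 minus that in Huh7, the difference was 0.66 for CDK1, 0.65 for CCNA2, 0.55 for CCNB1 and 0.59 for CCNB2. It was 0.65 for FOXM1, 0.72 for MYBL2, 0.50 for PLK1, 0.33 for AURKA, 0.64 for CDC25B and 0.48 for CDC25C. For CCNB2, MYBL2 and CDC25B the knockdown libraries lay below their controls in Huh7 and above them in HCCLM3 in 3 of 3 libraries of each line. The degree of circASH2 knockdown in each line was not analysed, and its part in these differences was not tested. No search for single outlying libraries was made, since every group held 3.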

How the results depend on the processing

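The 10 falls in Huh7, the 3 rises in HCCLM3, the 10 differences between the lines and the 7 differences between controls kept their direction and their side of the threshold under every alternative run (16 for each knockdown and for the controls, 21 for the difference), and no member's call reversed. The exception was CDK1 in HCCLM3, with a log2 fold change of -0.11: the number of members called lower there was 1 in place of 0 with each line fitted alone (edgeR adjusted p = 0.0346) and 1 with the replicate number as a block (0.0415), and its adjusted p ran from 0.0346 to 0.227 over the alternatives; the cause was not tested. Replicate numbers did not pair the libraries: deviations of same-numbered libraries correlated at -0.18 to 0.07 over 6 pairs, and 0 of 3 Huh7 and 1 of 3 HCCLM3 numbers correlated best with their own. Under the replicate block 199 of 204 values of named genes kept their side of the threshold, 4 lost it (ANAPC1 and RFC2 in Huh7, CKS2 in HCCLM3 with an edgeR adjusted p of 0.0553, and the difference of RBL2) and 1 gained it (CDK1 in HCCLM3). When one library was left out, 10 members stayed lower in Huh7 and 3 higher in HCCLM3. Raw counts of the members were 272 and more per library, and lowest for CDC25C in HCCLM3. There the standard error of the log2 fold change after knockdown was 0.08, the largest among the 10 members in either line. The part of depth in this was not tested.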
